A study of Homo sapiens with 6 samples.

Results

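The histone deacetylases, their SIN3 and NCOR1 scaffolds and the adaptor CTBP1 form the core of the transcriptional corepressor machinery that PSF, the RNA-binding splicing factor encoded by SFPQ, is known to recruit. The 9 genes described are SIN3A, SIN3B, HDAC1, HDAC2, HDAC3, HDAC4, HDAC9, NCOR1 and CTBP1. They were chosen by gene symbol from a list of such corepressors, and all 9 were found among the 21301 genes of the RNA-seq table and among the 19694 genes tested. SH-SY5Y cells, an established human neuroblastoma line with neuronal features, received 10 nM of a siRNA against PSF (siPSF) or of siControl (siCt) for 72 h, and 3 libraries were made for each group. All 6 libraries came from the same cell line and culture medium, and the study describes the libraries of a group as biological replicates. The siPSF group rests on a partial knockdown by 1 siRNA in 1 cell line, and mRNA alone was measured, so the amounts and the assembly of the corepressor proteins were not analysed here.

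Histone deacetylases remove acetyl groups from histone tails, which is generally linked to closed chromatin and low transcription, and they lack DNA-binding domains of their own. HDAC1 and HDAC2 act inside large complexes built on SIN3A or SIN3B, HDAC3 acts with NCOR1, and the class IIa enzymes HDAC4 and HDAC9 shuttle between nucleus and cytoplasm and bind MEF2 transcription factors. In neurons, class IIa enzymes respond to calcium signalling, and CTBP1 links zinc finger repressors to deacetylases and demethylases.

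After siPSF, HDAC4 mRNA fell to 78.1% of its siCt level, and it was the only member that passed the threshold of an adjusted p under 0.05 in edgeR (quasi-likelihood test, p-values adjusted by Benjamini-Hochberg across the whole table). The other 8 members did not pass: HDAC2 and NCOR1 had the next smallest p-values, with fold changes of opposite sign, and the fitted levels of the remaining 6 lay between 97.2% and 105% of siCt. Thus 1 of 9 members (11.1%) was called, against 14.9% of all genes tested, 8.27% being lower and 6.65% higher. The share among the members was near that background. The median log2 fold change of the 9 members was 0.04, beside 0.01 for all genes, with 3 members below 0 and 6 above it. In 2 of the 9 members (22.2%) the libraries of the groups did not overlap in CPM (counts scaled by library size and composition), against 34.4% of all genes.

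The libraries held between 101540520 and 132420931 counts, and the common biological coefficient of variation was 12.6%. SFPQ itself fell from 376.6 ± 23.1 to 189.1 ± 22.3 CPM (mean ± SD, n = 3), a log2 fold change of -0.99 (SE 0.10, edgeR adjusted p = 9.51e-05), and no siPSF library reached a siCt library. Of the 12 markers of sympathoadrenal neuroblastoma cells looked up, 11 had at least 1 CPM in siCt, and the exception was TH, the rate-limiting enzyme of catecholamine synthesis, at 0.741 CPM. The markers summed to between 6107 and 6852 CPM in siCt and between 5564 and 6810 in siPSF. Of the 12, 2 were called lower and 1 higher, while 14.9% of all genes were called. The lower ones were DBH (log2 fold change -0.68, edgeR adjusted p = 0.00241) and TH (-1.20, adjusted p = 0.0245). The higher one was GATA3 (0.30, adjusted p = 0.0322). The groups were separate in each of these 3, and the overlapping sums do not show such changes of single markers. Fibroblast markers summed to between 44.1 and 67.6 CPM over all 6 libraries. Most of this was PDGFRB, at means of 49.8 CPM in siCt and 38.1 in siPSF. The 1 of 6 called (16.7%) was COL3A1, lower with overlapping groups (log2 fold change -0.71, edgeR adjusted p = 0.047). Of the 6 glial and the 6 blood cell markers, 2 each were in the table, none was called, and they summed to at most 2.37 and 4.76 CPM. In bulk RNA, fewer cells that express a gene and less RNA per cell cannot be told apart.

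**Figure D1:**
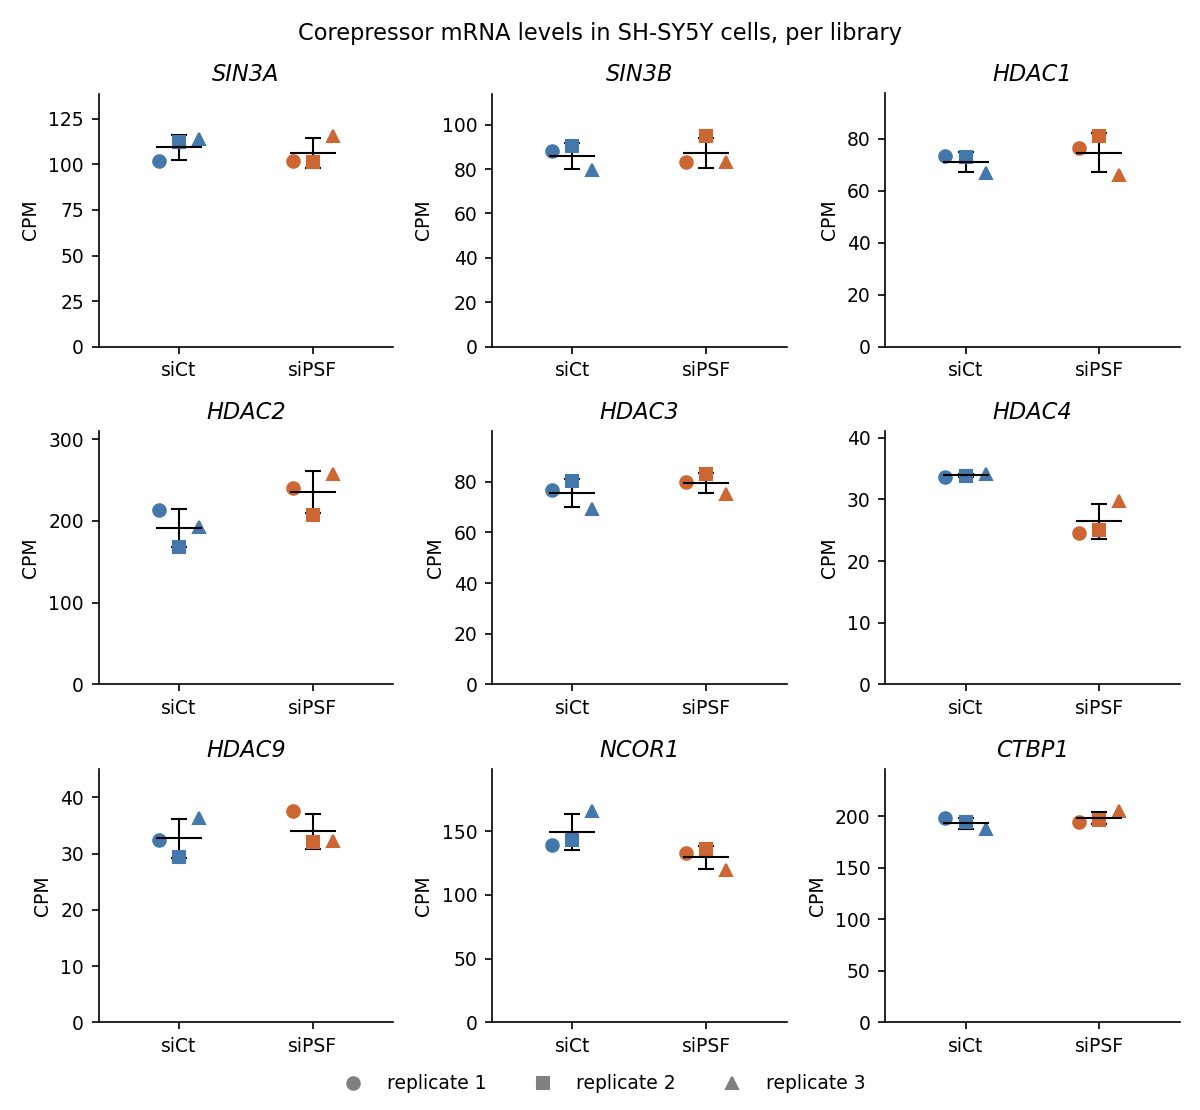
Expression of each of the 9 corepressor genes (CPM, axis from 0) in the 3 siCt and 3 siPSF libraries, with the mean and SD as black bars and the replicate shown by the marker shape. The siPSF points of HDAC4 and NCOR1 lie wholly below the siCt points, and in the other 7 panels the groups overlap.

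Among the members, CTBP1 was the most abundant per transcript length. In siCt its level was 52.7 ± 2.67 FPKM (fragments scaled by exonic length and sequencing depth, mean ± SD, n = 3), followed by HDAC3 at 36.7 ± 2.001, HDAC1 at 30.6 ± 0.80 and HDAC2 at 20.8 ± 3.55. The scaffolds SIN3B (16.0 ± 0.71), SIN3A (15.1 ± 1.17) and NCOR1 (14.8 ± 1.53) formed a middle tier in which SIN3B and SIN3A, and likewise SIN3A and NCOR1, overlapped between libraries. The class IIa enzymes were the least abundant, with HDAC9 at 5.83 ± 0.83 and HDAC4 at 3.65 ± 0.10 FPKM. The order of the means was the same in siPSF. There HDAC1 (30.9 ± 3.30) and HDAC2 (28.6 ± 3.98) overlapped, SIN3B and SIN3A overlapped, and all other neighbours were separate.

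The SIN3 scaffolds carry paired amphipathic helices that hold DNA-binding repressors at one end and the HDAC1 and HDAC2 module at the other. SIN3A was measured at 102, 113 and 114 CPM in siCt replicates 1 to 3 and at 102, 101 and 116 CPM in siPSF replicates 1 to 3. The groups covered almost the same range, and the log2 fold change was -0.04 (SE 0.09, edgeR adjusted p = 0.794). The 95% interval of -0.23 to 0.15 bounds the size of a difference. SIN3B, the paralog of SIN3A, was at 88.2, 90.5 and 79.5 CPM in siCt and at 83.2, 95.1 and 83.2 CPM in siPSF. Its groups overlapped as well, with a log2 fold change of 0.02 (SE 0.09, adjusted p = 0.917, 95% interval -0.18 to 0.21).

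HDAC1, HDAC2 and HDAC3 are the nuclear class I deacetylases that supply most of the catalytic activity of these complexes. HDAC1 stood at 73.5, 72.9 and 66.8 CPM in siCt and at 76.6, 81.2 and 66.2 CPM in siPSF, and the groups overlapped (log2 fold change 0.07, SE 0.09, adjusted p = 0.656, 95% interval -0.13 to 0.28). HDAC3 was at 76.7, 80.4 and 69.4 CPM in siCt and at 79.8, 83.2 and 75.3 CPM in siPSF. It also overlapped (log2 fold change 0.07, SE 0.09, adjusted p = 0.615, 95% interval -0.11 to 0.26). HDAC2, the closest relative of HDAC1, had 213, 168 and 193 CPM in siCt and 240, 207 and 258 CPM in siPSF. The lowest siPSF library, replicate 2, lay below the highest siCt library, replicate 1, so the groups overlapped. The fitted level in siPSF was 123% of siCt (log2 fold change 0.30, SE 0.11, 95% interval 0.06 to 0.53), which missed the threshold with an adjusted p of 0.0832 in edgeR. Without siCt replicate 1 or without siPSF replicate 2, which are the libraries that overlap, the adjusted p of HDAC2 was 0.0497 and 0.0444, and without any other library it was above the threshold.

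HDAC4 is a class IIa deacetylase with very little catalytic activity of its own, known to silence MEF2 targets in muscle and neurons. It was measured at 33.7, 33.8 and 34.2 CPM in siCt and at 24.6, 25.1 and 29.8 CPM in siPSF. The siCt libraries differed very little, with a coefficient of variation of 0.789% against 10.8% in siPSF, and all siPSF libraries were lower. The fall was -0.36 on the log2 scale (SE 0.10, 95% interval -0.57 to -0.14, edgeR adjusted p = 0.0306). Of the siPSF libraries, replicate 3 was the nearest to siCt in HDAC4. SFPQ was at 209, 193 and 165 CPM in siPSF replicates 1 to 3, and a relation of its level to that of HDAC4 was not tested. Leaving out 1 library at a time kept the direction, with log2 fold changes from -0.45 to -0.31, but HDAC4 passed the threshold in 1 of these 6 fits, that without siPSF replicate 3 (adjusted p = 0.00595). Without siCt replicates 1, 2 and 3 in turn the adjusted p was 0.0613, 0.0904 and 0.0714, and without siPSF replicates 1 and 2 it was 0.132 and 0.0981. HDAC9, the other class IIa member, stood at 32.5, 29.4 and 36.4 CPM in siCt and at 37.5, 32.1 and 32.3 CPM in siPSF. Its groups overlapped, and the log2 fold change was 0.05 (SE 0.11, adjusted p = 0.788, 95% interval -0.18 to 0.28).

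NCOR1, the scaffold that activates HDAC3 on unliganded nuclear receptors, had 139, 143 and 166 CPM in siCt and 133, 136 and 119 CPM in siPSF. All siPSF libraries were below all siCt libraries, by a margin that was small between siPSF replicate 2 and siCt replicate 1. The log2 fold change of -0.21 (SE 0.09, 95% interval -0.41 to -0.0038) did not pass, with an edgeR adjusted p of 0.16. CTBP1, an NADH-sensing corepressor, varied little between libraries, with a coefficient of variation of 2.87% in siCt and 2.83% in siPSF. Its levels were 198, 194 and 187 CPM in siCt and 194, 196 and 204 CPM in siPSF. The groups overlapped (log2 fold change 0.04, SE 0.08, adjusted p = 0.788), and the 95% interval of -0.13 to 0.20 was the narrowest of the 9.

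**Figure D2:**
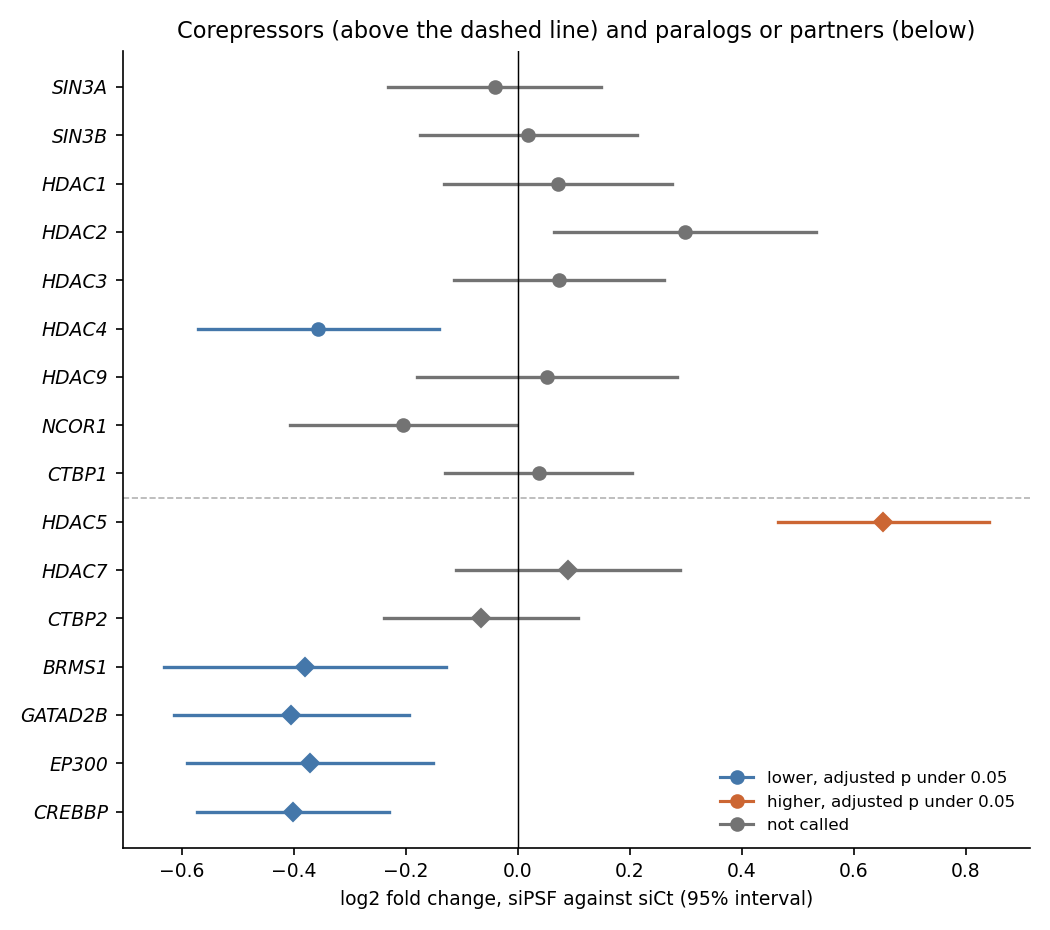
Fitted log2 fold changes of siPSF against siCt with their 95% intervals for the 9 members (circles) and for their paralogs and the partner genes called (diamonds), coloured blue for lower and orange for higher at an edgeR adjusted p under 0.05. HDAC4 at -0.36 is the blue circle, HDAC5 at 0.65 the orange diamond, and BRMS1, GATAD2B, EP300 and CREBBP are the blue diamonds.

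The nearest paralogs of the members showed a mixed picture, with HDAC5, the class IIa enzyme closest to HDAC4, rising in the opposite direction. HDAC5 was at 51.5, 49.4 and 46.2 CPM in siCt and at 77.2, 81.5 and 72.6 CPM in siPSF, and the groups were well apart. The log2 fold change was 0.65 (SE 0.09, edgeR adjusted p = 0.000519), and HDAC5 passed in all 13 alternative fits. HDAC7, the remaining class IIa enzyme, had a log2 fold change of 0.09 (SE 0.09), and CTBP2, the paralog of CTBP1, had a log2 fold change of -0.07 (SE 0.08), and neither was called. Within each library, the log2 ratio of HDAC4 to HDAC5 CPM went from -0.53 ± 0.09 in siCt to -1.55 ± 0.23 in siPSF (mean ± SD, n = 3, exact permutation test, two-sided, p = 0.1). The smallest p that 3 against 3 libraries allow is 0.1, and adjusted over the 6 paralog pairs compared it was 0.2. The ratios of HDAC4 to HDAC7 and of HDAC4 to HDAC9 were separate between groups too, lower by 0.45 and by 0.41 in siPSF. With HDAC9 the gap was narrow, from -0.0899 in siCt replicate 3 to -0.117 in siPSF replicate 3. The separate ratios all contain HDAC4, so they are not independent of its fall. The ratios of SIN3A to SIN3B, HDAC1 to HDAC2 and CTBP1 to CTBP2 overlapped.

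Beyond these, 80 partner genes in 8 lists were looked up, and 79 were tested, PRKD1 being not analysed here. Of the 79, 4 were called lower and 1 higher (6.33%), below the 14.9% over all genes, and 24 (30.4%) did not overlap between groups, against 34.4% over all genes. Their median log2 fold change was -0.04. Among the 17 SIN3 complex partners, 1 was lower and none higher (5.88% called), with a median of -0.09. The lower gene was BRMS1, a SIN3 subunit named as a metastasis suppressor, at 68.0, 67.9 and 58.8 CPM in siCt and 44.7, 45.6 and 59.3 CPM in siPSF. Replicate 3 of siPSF reached the siCt range, and the log2 fold change was -0.38 (SE 0.12, edgeR adjusted p = 0.0457). Leaving out any library other than siPSF replicate 3 ended the call of BRMS1, with an adjusted p of up to 0.163, as did testing without a filter on low counts, and it was called in 6 of the 13 alternatives.

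Of the 11 NuRD subunits, which also carry HDAC1 and HDAC2, 1 was lower, with a median over the list of -0.07. This is 9.09% of the list, against 14.9% of all genes called and 8.27% called lower. The lower subunit is described next. It was GATAD2B, a zinc finger subunit linking the MBD and CHD parts of the complex, at 121, 136 and 139 CPM in siCt and 93.3, 93.7 and 113 CPM in siPSF. The groups were separate (log2 fold change -0.40, SE 0.10, edgeR adjusted p = 0.0155). The call held in 2 of the 6 fits without a library. In the others, those without siCt replicate 2 or 3 or siPSF replicate 1 or 2, the adjusted p was up to 0.0694. A pseudogene inside GATAD2B, LOC645965, named after its values were seen, rose from 0.353 to 2.88 CPM (log2 fold change 3.03, adjusted p = 4.36e-05).

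Among the 6 other deacetylases HDAC5 was the only one called (16.7%, against 14.9% of all genes), and the median was 0.10. None of the 7 sirtuins, the NAD-dependent deacetylases, was called, and their median was 0.08. SIRT6 had the smallest p among them, with a log2 fold change of 0.15 (SE 0.10, edgeR adjusted p = 0.369). No sirtuin had an unadjusted p under 0.05 in edgeR, while 5860 of all 19694 genes tested did. The 4 NCoR partners held no call either (median -0.07), and none had an unadjusted p under 0.05. TBL1X, a WD40 subunit of the NCOR1 complex, had the smallest p among them, with a log2 fold change of -0.18 (SE 0.09, edgeR adjusted p = 0.199). In the 14 CtBP and CoREST partners no gene was called, with a median of 0.05. Of these 14, 5 had an unadjusted p under 0.05, beside the 5860 of 19694 over all genes. RCOR1, the CoREST scaffold of HDAC1, HDAC2 and the demethylase KDM1A, had the smallest p there, and stood at 55.8, 52.6 and 60.0 CPM in siCt and 47.4, 44.4 and 48.3 CPM in siPSF. The groups were separate, but the log2 fold change of -0.26 (SE 0.09) missed the threshold (adjusted p = 0.0622). RCOR1 was called lower in 5 of the 13 alternatives, DESeq2's Wald test among them.

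The class IIa partners are MEF2 factors, 14-3-3 proteins and the kinases that drive class IIa enzymes out of the nucleus. Of the 11 tested, none was called, with a median of -0.04. In edgeR 3 of them had an unadjusted p under 0.05, against 5860 of 19694 over all genes. SIK2, one of these kinases, had the smallest p, with a log2 fold change of -0.29 (SE 0.10, edgeR adjusted p = 0.0685), and it was called in 4 of the 13 alternatives. On the opposing side, 2 of the 9 histone acetyltransferases were lower and none higher (22.2% called, against 14.9% of all genes, 8.27% being lower), with a median of -0.16. They were the paralogs CREBBP and EP300, the coactivators that acetylate histone H3. CREBBP had 180, 185 and 195 CPM in siCt and 135, 145 and 143 CPM in siPSF. Its groups were well apart (log2 fold change -0.40, SE 0.08, edgeR adjusted p = 0.00562), and it passed in all 13 alternatives. EP300 had 75.9, 84.6 and 87.9 CPM in siCt and 65.5, 70.7 and 55.9 CPM in siPSF, without overlap (log2 fold change -0.37, SE 0.10, adjusted p = 0.028). Leaving out siCt replicate 2 or 3 or siPSF replicate 1 or 3 ended the call of EP300, with an adjusted p of up to 0.0973.

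Members of the group differ widely in gene length, and in these libraries the fold change fell with gene length. Protein-coding genes under 20 kb in the RefSeq annotation of GRCh38.p14 had a median log2 fold change of 0.08 (5464 genes, 3.13% called lower), those of 200 to 400 kb -0.21 (763 genes, 29.5% lower), and those of 400 kb or more -0.58 (370 genes, 53.8% lower). HDAC9, which spans 916 kb, is in the longest class, and 90.3% of that class had a lower log2 fold change. HDAC4, at 353 kb, lay 0.15 below the median of its class on the log2 scale, and 34.1% of the class had a lower log2 fold change. NCOR1, at 186 kb, lay 0.09 below the median of its class (100 to 200 kb, 1637 genes, median -0.11). The other 6 members are between 16.0 and 86.4 kb long and fell within 0.04 of their class medians, except HDAC2, which lay 0.26 above. HDAC5, at 46.9 kb, lay above 97.0% of the 3800 genes of 20 to 50 kb. CREBBP and GATAD2B (100 to 200 kb) lay 0.29 below their class median each, EP300 (50 to 100 kb) 0.36 and BRMS1 (under 20 kb) 0.46 below. The part of gene length in the change of any of these genes was not tested.

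**Figure D3:**
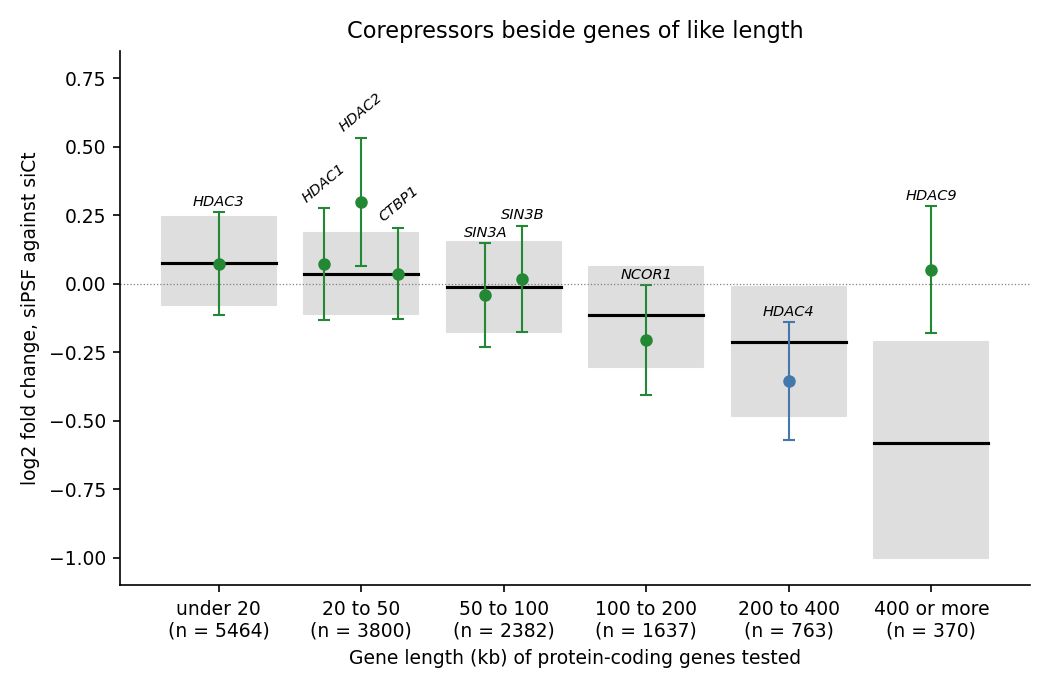
Log2 fold change of siPSF against siCt by gene length class (kb, number of protein-coding genes tested in brackets), with the class median as a black line, the middle 50% as a grey box, and the 9 members as points with 95% intervals, the called HDAC4 in blue and the others in green. The class median falls to -0.58 for genes of 400 kb or more, where HDAC9 sits above the box at 0.05.

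HDAC2 and HDAC9 stood out from the other members in a second readout, the exonic length implied by the ratio of counts to FPKM in a library, which depends on which transcripts the authors' processing assigned to the gene. This measure was chosen after the data were seen. For HDAC9 the implied length was 102%, 99.8% and 98.2% of the siCt mean in the siCt libraries and 86.5%, 85.2% and 79.9% in the siPSF libraries. For HDAC2 it was 103%, 106% and 91.4% in siCt and 79.8%, 87.9% and 85.8% in siPSF. Neither gene overlapped between groups, and the siPSF mean was 83.8% of siCt for HDAC9 and 84.4% for HDAC2. Of the 13115 genes that had 200 counts or more in each library, 82.5% stayed within 2% and 2.71% moved by over 10%, while 104 genes (0.793%) moved further than HDAC9 and 115 (0.877%) further than HDAC2. The groups were also separate in SIN3B, HDAC1 and HDAC3, where the siPSF mean was 100.2%, 98.7% and 100.6% of siCt, and over all genes compared they did not overlap in 18.8%. The other 7 members had a siPSF mean between 95.7% and 101% of siCt.

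Scaled by the total counts, the implied lengths were 5.79 ± 0.11 kb in siCt and 4.86 ± 0.20 kb in siPSF for HDAC9 (mean ± SD, n = 3), and 9.52 ± 0.74 and 8.03 ± 0.40 kb for HDAC2. This scale runs slightly long, since SIN3A at 7.44 kb in siCt exceeded its longest coding transcript in GENCODE v44, of 6.72 kb. GENCODE lists 23 coding transcripts of HDAC9, from 0.545 to 10.1 kb, and 12 of HDAC2, from 0.502 to 9.74 kb. HDAC4 kept an implied length of 9.55 ± 0.07 kb in siCt and 9.59 ± 0.12 kb in siPSF, and its FPKM level was 3.65 ± 0.10 in siCt and 2.69 ± 0.26 in siPSF. The mean level of HDAC2 was 20.8 ± 3.55 FPKM in siCt and 28.6 ± 3.98 in siPSF. Limma on log2(FPKM + 0.5), another test on other values and fewer genes, gave HDAC2 a log2 fold change of 0.46 (adjusted p = 0.0446), and 0.34 once every library was rescaled to an equal FPKM total (adjusted p = 0.124). For HDAC9 these fits gave 0.21 and 0.11, and neither called it (adjusted p = 0.227 and 0.577).

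**Figure D4:**
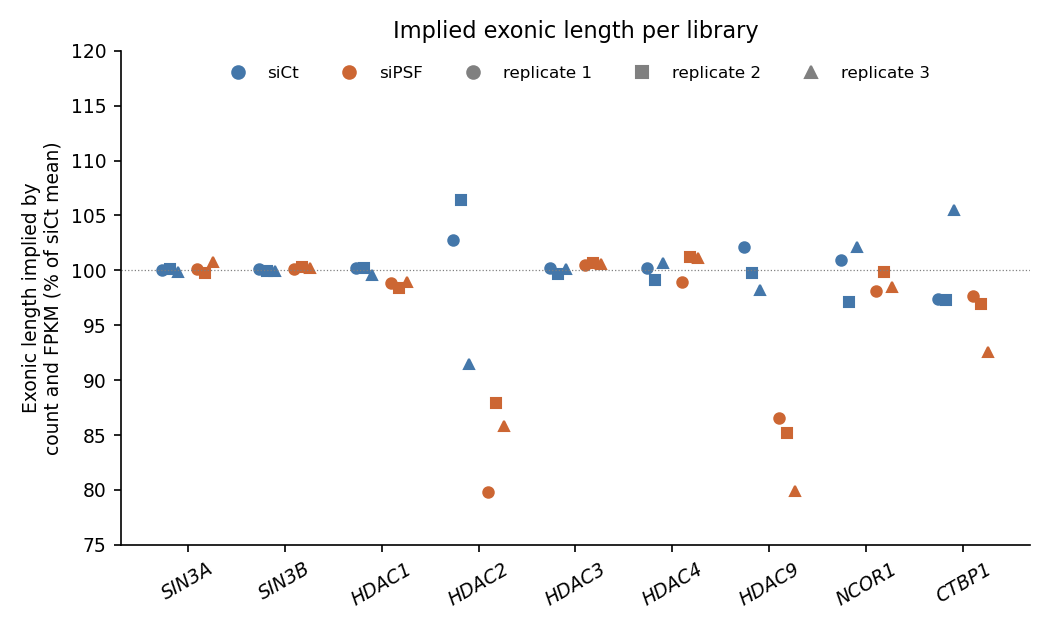
Exonic length implied by the ratio of count to FPKM in each library, as a percentage of the siCt mean of the gene (axis not from 0), for the 9 members, with siCt in blue, siPSF in orange and the replicate shown by the marker shape. The siPSF points of HDAC2 and HDAC9 lie between 79.8% and 87.9%, and those of the other members between 92.6% and 101%.

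Several members share their position with a transcript on the opposite strand, and whether the counting used strand is not given in the sources used here, so reads in such stretches cannot be assigned with certainty. CTBP1 overlaps CTBP1-DT, a long noncoding RNA that starts beside it and runs the other way, over 916 bases. CTBP1-DT was at 20.1, 19.6 and 20.6 CPM in siCt and 13.8, 14.3 and 16.4 CPM in siPSF. All siPSF libraries were lower, with a log2 fold change of -0.44 (SE 0.10, edgeR adjusted p = 0.0134), beside 0.04 for CTBP1 itself. CTBP1-AS, which lies antisense to the other end of CTBP1 and is named here after its values were seen, had 14 to 20 counts in every library and a log2 fold change of 0.03 (SE 0.36, adjusted p = 0.964). Its groups overlapped. NCOR1 overlaps TTC19, a gene of mitochondrial complex III assembly, over 15859 bases. TTC19 had a log2 fold change of 0.11 (SE 0.12, adjusted p = 0.588), and its groups overlapped. HDAC4-AS1 and HDAC2-AS2, also named after their values were seen, were at means of 0.422 and 0.800 CPM and were not called (log2 fold changes 0.46, SE 0.31, and -0.54, SE 0.24). Pseudogenes of HDAC1 and NCOR1 are annotated, and reads from near-identical copies could be counted with either gene.

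The windows around the starts of HDAC4, HDAC2 and CTBP1 are shown because each lies inside or beside the start of its opposite-strand RNA, whose level was compared with it above. They are 300 bases from RefSeq on GRCh38.p14, from 250 bases before to 50 bases after the start nearest to that RNA, read 5′ to 3′ on the minus strand, and all 9 members had an entry. The window of HDAC4 is chr2:239401600-239401899, that of HDAC2 chr6:113971099-113971398 and that of CTBP1 chr4:1249081-1249380. The starts lie 213, 1447 and 310 bases from the start of HDAC4-AS1, HDAC2-AS2 and CTBP1-DT. HDAC4 has 5 starts among these RefSeq windows, HDAC2 has 1 and CTBP1 has 3, and which of them the cells use was not tested. Capitals mark the GC box GGGCGG or its complement CCGCCC.
HDAC4: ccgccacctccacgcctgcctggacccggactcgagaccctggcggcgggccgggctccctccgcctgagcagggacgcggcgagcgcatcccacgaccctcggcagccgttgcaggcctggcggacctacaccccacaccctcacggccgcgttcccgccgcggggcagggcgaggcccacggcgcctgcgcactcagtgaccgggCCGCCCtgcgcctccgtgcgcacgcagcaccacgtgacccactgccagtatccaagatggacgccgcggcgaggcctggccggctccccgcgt
HDAC2: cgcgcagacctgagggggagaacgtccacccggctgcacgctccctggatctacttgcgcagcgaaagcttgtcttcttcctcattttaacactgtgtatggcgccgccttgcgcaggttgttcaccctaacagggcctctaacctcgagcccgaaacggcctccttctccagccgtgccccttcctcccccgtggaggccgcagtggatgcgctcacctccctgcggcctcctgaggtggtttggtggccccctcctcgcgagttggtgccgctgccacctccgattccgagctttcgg
CTBP1: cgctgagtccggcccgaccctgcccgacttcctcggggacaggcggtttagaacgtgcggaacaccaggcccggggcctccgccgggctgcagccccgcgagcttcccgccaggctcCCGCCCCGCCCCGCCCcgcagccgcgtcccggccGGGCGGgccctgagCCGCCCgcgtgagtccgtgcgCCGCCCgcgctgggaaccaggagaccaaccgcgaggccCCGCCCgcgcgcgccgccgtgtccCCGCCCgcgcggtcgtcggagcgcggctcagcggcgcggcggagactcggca

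The CTBP1 window, next to the noncoding RNA that fell, was the richest of the 3 in GC (80.7%, with 53 CpG dinucleotides and 8 GC boxes, adjacent matches counted separately). The HDAC4 window had 76.3% GC, 40 CpG and 1 GC box, and the HDAC2 window 64.0% GC, 24 CpG and none. Over the 35116 RefSeq windows of this length the medians were 58.7% GC and 14 CpG, and 45.0% held a GC box. None of the 3 held TATAAA or CCAAT on either strand, letters found in 11.5% and 34.6% of all windows. These matches describe the sequence only.

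Finally, the genes whose log2 CPM followed HDAC4 most closely over the 6 libraries were PHF2, a histone demethylase of H3K9, IPO5P1, a pseudogene of the importin IPO5, and RAB11FIP4, an effector of RAB11 in endosome recycling. Their Pearson correlations with HDAC4 were 0.997, 0.996 and 0.994. They are the highest among the 14679 genes averaging 1 CPM or more, of which 128 exceeded 0.95. All of these values share the same 6 libraries and the difference between the groups. PHF2 went from 77.5 to 57.0 CPM between the group means (log2 fold change -0.44, edgeR adjusted p = 0.0113). IPO5P1 went from 35.3 to 24.2 CPM (-0.54, adjusted p = 0.0109), and its reads could come in part from IPO5. RAB11FIP4 went from 66.2 to 42.0 CPM (-0.66, adjusted p = 0.00561). All 3 fell further than HDAC4. They were chosen for following HDAC4 in these same libraries, so their p-values are no separate evidence.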

How the data were processed

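RNA-seq was performed on 3 siCt and 3 siPSF libraries of SH-SY5Y cells. The authors deposited 1 table that gives, for every gene, a read count and an FPKM value in each of the 6 libraries. For the steps before counting, the study's methods name removal of rRNA reads with Bowtie 2, TopHat, hg38 and RefSeq, whereas the submitters' processing notes name Trimmomatic, HISAT2 2.1.0, StringTie 2.1.3b and GRCh38; which of them gave the deposited counts was not settled. The methods call the length-scaled unit RPKM and the table FPKM, and such values depend on the transcripts assigned to a gene. All 21301 rows have a count above 0 in every library, so genes without reads were not analysed here.

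The deposited counts were tested with edgeR 4.0.16 (R 4.3.3, filterByExpr, TMM, quasi-likelihood test) on the whole table, with Benjamini-Hochberg adjustment over 19694 genes and calls at an adjusted p under 0.05. CPM values use TMM-scaled library sizes. The test was run on simulated counts first. Replicates of a group differed beyond sampling noise (chi-square per degree of freedom 20.8 to 61.2). The study names no test for these data. The members and lists were chosen with earlier results of these data known. Named were all members, up to 4 called genes of each partner list or, where none was called, that with the smallest p, overlapping genes of at least 1 CPM, the 3 genes most correlated with the member of smallest p, SFPQ, and the paralogs HDAC5, HDAC7 and CTBP2; others are marked as chosen later. A gene that this rule selects is not reported here, and the counts over the partner lists leave it out. Positions, lengths and promoter windows came from RefSeq (97.9% of genes tested matched by ID). FPKM values were used for levels and, as log2(FPKM + 0.5), for alternatives with limma 3.58.1. Further alternatives were DESeq2 1.42.0 (size factors and Wald test), no filter, a replicate block, leaving out each library, a pseudocount of 0.1, rescaled FPKM and a threshold of 0.01.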

Additional observations from a re-analysis of the deposited data

How the results depend on the processing

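The count of members called, 1 in the report, was 1 with DESeq2's size factors, with its Wald test and without a filter on low counts. It was 0 at an adjusted p under 0.01, and between 0 and 1 when 1 library was left out. Without siCt replicate 1 or siPSF replicate 2 the gene called was HDAC2, and without siPSF replicate 3 it was HDAC4. The count was 2 with limma on log2(FPKM + 0.5), on log2(FPKM + 0.1) and on rescaled FPKM. The added gene was HDAC2, HDAC2 and NCOR1 (NCOR1 -0.37, adjusted p = 0.0364). The 5 partner genes called became 9 by DESeq2's Wald test, 7 by limma on FPKM with either pseudocount, 21 on rescaled FPKM (20 of them lower), 4 without a filter on low counts (BRMS1 lost), 2 at an adjusted p under 0.01, and between 2 and 7 without 1 library; the count of 2 came without siCt replicate 2 or 3. The cause of these shifts was not tested. The FPKM scales move the median of all genes to -0.06 and -0.16 (rescaled), and calls over all genes from 1628 lower and 1310 higher to 1782 and 736, and 3409 and 463; without siCt replicate 2 they were 928 and 572. Small uncalled values changed sign: SIN3B (-0.061, -0.062 and rescaled -0.17; -0.048 to 0.051 without 1 library), HDAC3 (-0.0115, -0.0116 and -0.12), and, on rescaled FPKM, HDAC1 (-0.10) and CTBP1 (-0.091), while HDAC9 ran from -0.030 to 0.13 without 1 library and was 0.21 and 0.23 on FPKM with either pseudocount. HDAC4 kept its direction in all 13 alternatives and passed in 8, and SFPQ passed in all 13.

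With the replicate number as a block, 2 members (HDAC2, adjusted p = 0.0337, and HDAC4) and 7 partners were called, RCOR1, SIK2 and KAT6B being added and BRMS1 lost. Same-numbered libraries deviated together with correlations of -0.04, 0.21 and 0.10, and not every library correlated best with its own number, so the numbers are not taken as pairs.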
